A study of Macaca mulatta with 12 samples.

Results

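The liver was represented by 1 of the 12 small RNA profiles of rhesus macaques (Macaca mulatta), and this profile was chosen by its tissue label alone. The other 11 profiles came from 7 tissues, with 2 profiles each for kidney, muscle, small intestine and large intestine and 1 each for lung, occipital lobe and spinal cord. All animals were wild-type, 36 months old and untreated, and the labels do not say which animal gave which sample. Because the liver had 1 profile and no replicate, its differences from the other tissues are described by their size and were not tested, and the spread between profiles could be measured only in the 4 pairs of other tissues.

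MicroRNAs are short RNAs that are cut from a hairpin called the pre-miRNA. Each hairpin can give a mature miRNA from its 5′ arm (-5p) and from its 3′ arm (-3p). A mature miRNA finds its target mRNAs mainly through its seed, the bases from position 2 to position 8, and lowers their translation and stability. In the liver, miR-122 is known as the miRNA of hepatocytes, where it acts on cholesterol and lipid metabolism, while miR-192 and miR-194 are known from hepatocytes and from the epithelia of gut and kidney.

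The mature sequences below are those on which the comparison of the liver turned. The 5 most abundant miRNAs of the liver are shown first, then the liver-high miRNAs that are discussed in detail, and last 4 miRNAs that were low in the liver. Capitals mark the seed of the annotated sequence, which for miR-122a-3p is not the seed of most liver reads, because these began 1 or 2 bases earlier.
miR-192-5p: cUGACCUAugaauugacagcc
let-7f-1-5p: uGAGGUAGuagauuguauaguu
miR-143-3p: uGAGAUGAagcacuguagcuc
miR-148a-3p: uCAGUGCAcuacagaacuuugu
miR-27b-3p: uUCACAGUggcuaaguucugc
miR-122a-5p: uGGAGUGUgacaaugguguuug
miR-122a-3p: aCGCCAUUaucacacuaaaua
miR-148a-5p: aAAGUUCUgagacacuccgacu
miR-885-5p: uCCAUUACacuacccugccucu
miR-3614-5p: uCACUUGGaucugaaggcugcc
miR-33b-5p: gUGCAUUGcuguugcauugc
miR-369-3p: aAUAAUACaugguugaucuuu
miR-431-5p: uGUCUUGCaggccgucaugca
miR-196a-1-5p: uAGGUAGUuucauguuguugg
miR-196b-5p: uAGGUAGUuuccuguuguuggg
miR-183-5p: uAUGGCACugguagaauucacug
miR-133a-3p: uUGGUCCCcuucaaccagcug

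A second set of liver sequences matched no pre-miRNA, and the most abundant ones are shown as they were sequenced, with t for u. They are printed because unmatched reads made up 44.2% of the liver reads. The first 2 lines share their inner letters and belong to the second largest family of unmatched sequences, and the next 5 lines belong to the largest family.
unmatched 1: tggggggcccaagtccttctgatcgaggcc
unmatched 4: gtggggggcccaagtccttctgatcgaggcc
unmatched 2: ggaataccgggtgctgtaggctt
unmatched 3: ataccgggtgctgtaggctt
unmatched 5: accgggtgctgtaggctta
unmatched 6: gaataccgggtgctgtaggctt
unmatched 7: gggaataccgggtgctgtaggctt
unmatched 11: tcgtacgactcttagcgg
unmatched 12: ctaatggataaggcactg

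The liver profile held 24793024 reads, and the other profiles held between 22118095 and 25579064. Levels are given as RPTM, the reads per 10000000 reads of a profile, so that 1 liver read is 0.403 RPTM and a miRNA with no liver read can have up to 1.21 RPTM (3 reads, counting error only). The 1219 mature sequences compared here came from a part of the study's longer list. Of these, 371 passed a filter that asked for a 12-profile mean of 5 RPTM or more with a standard deviation of 1 or more. A difference is the log2(RPTM + 1) of the liver minus the mean of the 7 other tissues, and it understates the change of low miRNAs. A miRNA was called higher or lower when this difference was at least 2, that is 4-fold, and the liver lay above or below all 11 other profiles. Within the 4 pairs of profiles, the median absolute log2 difference was 0.47. RefSeq (assembly T2T-MMU8v2.0) held 40 of the 44 hairpins named here, and it is used for the host genes and neighbours below, without coordinates, because the study used another build. The labels name no batch, and neither batch nor animal can be told apart from the tissue in the liver.

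Few miRNAs set the liver profile apart, led by miR-192-5p in abundance and by miR-122a in the size of the difference. MiR-192-5p, which marks the liver here, was the most abundant miRNA of the liver with 1203647 RPTM. It held 33.6% of the reads assigned to mature miRNAs. In the other 11 profiles it ranged from 4096 RPTM in lung over a median of 253994 to 1873843 in small intestine 1, so that the liver came after both small intestine profiles. Its difference was 4.40 with a pair SD of 0.43 on the log2 scale, but it was not called because of the small intestine. As a share of the assigned reads, the order changed: the 33.6% of the liver lay above the 29.1% of small intestine 1, and per assigned reads miR-192-5p was called higher with a difference of 5.07. Whether this marker separates liver from small intestine thus depends on the scale.

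MiR-122a-5p separated the liver from every other tissue. It had 7320 RPTM in the liver (18149 reads, 95% Poisson interval 7214 to 7427 RPTM). In the other 11 profiles it had 1.23 RPTM at the lowest, 1.95 at the median and 4.37 at the highest, in lung. The liver was 1674-fold above lung, the difference was 11.19 and the pair SD was 0.45. The second arm, miR-122a-3p, had 419 RPTM in the liver and at most 1.23 RPTM elsewhere, which was 3 reads in small intestine 1. The 5′ arm held 94.6% of the reads of both arms. Both values go with the liver label. MiR-122a-5p nevertheless held only 0.204% of the assigned liver reads, far below miR-192-5p.

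The first 4 bases of miR-122a-5p, UGGA, are also the first 4 bases of the 3′ adapter that the study's methods name. Reads beginning with these 4 bases made up 0.112% of the liver reads and between 0.00245% and 0.0235% of the other profiles. They include miR-122a-5p itself, with 18149 exact liver reads, of which 87.2% began at the annotated base. Reads beginning with UGA made up 18.7% of the liver reads and 17.9% to 60.2% of the other profiles. MiR-1-1-3p and miR-185-5p, both called lower, begin with the same 4 bases. Whether the removal of the adapter had a part in the levels of these miRNAs was not tested.

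Of the 371 miRNAs, 15 were called higher in the liver (4.04%) and 24 lower (6.47%). The liver was the highest of the 12 profiles for 17 miRNAs (4.58%) and the lowest for 30 (8.09%). The median difference over all 371 was -0.24. The scale mattered for the split. Per reads assigned to mature miRNAs, the median of these 371 rose by 0.67. Of such reads the liver had the smallest share (35.9% of its reads against 46.3% to 68.4%). The filter on that scale kept 416 miRNAs, of which 33 were higher and 14 lower. All 15 higher and 13 of the 24 lower calls were among them. Without occipital lobe and spinal cord, 36 were higher and 25 lower, of which 13 and 18 were the same miRNAs.

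**Figure D1:**
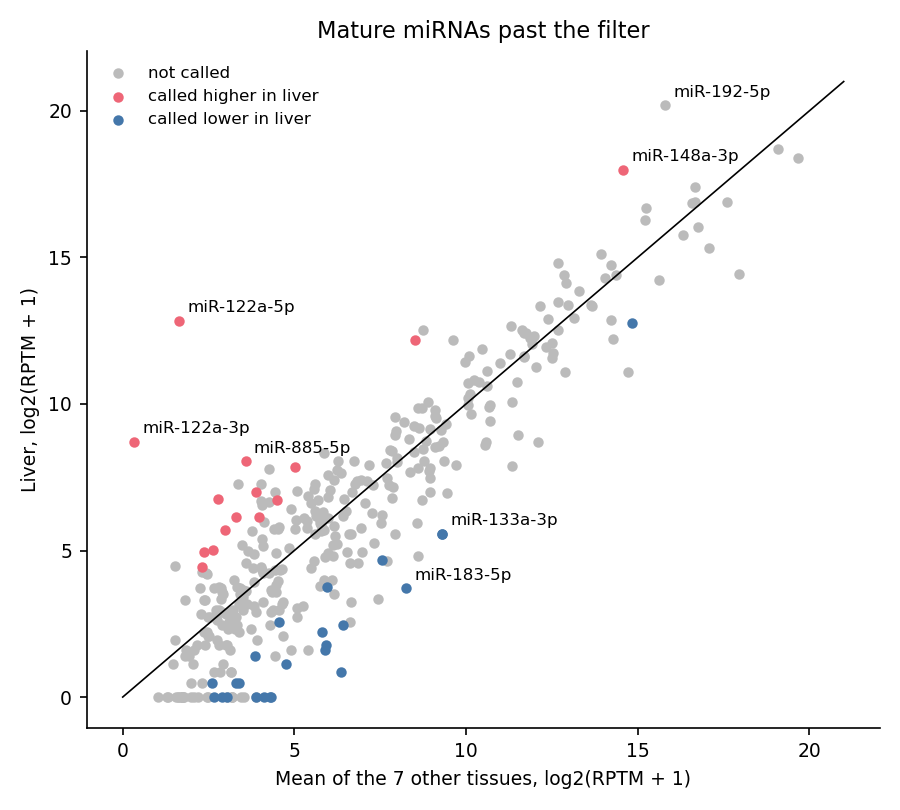
Level of the 371 miRNAs past the filter in the liver (vertical axis) and as the mean of the 7 other tissues (horizontal axis), both as log2(RPTM + 1), with 1 point per miRNA and a line of equal levels. The 15 miRNAs called higher are red and the 24 called lower are blue, and miR-122a-5p and miR-122a-3p lie farthest above the line.

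MiR-148a was the abundant miRNA among those called higher. It is known from hepatocytes, where it acts on the LDL receptor. The 3′ arm, miR-148a-3p, had 261170 RPTM in the liver, the fourth level of the profile. The other 11 profiles ranged from 5615 RPTM in occipital lobe over 32344 to 73797 in kidney 2, so that the liver was 3.54-fold above the highest. The difference was 3.42 with a pair SD of 0.50. The 5′ arm, miR-148a-5p, was 4.20-fold above the highest other profile (4688 RPTM against 1117 in small intestine 1, difference 3.67). Both arms thus stood out by like amounts, and the 5′ arm held 1.76% of their reads in the liver and 1.03% to 2.37% elsewhere. Relatives that share the seed of miR-148a-3p were scarce in the liver: miR-148b-3p had 250 RPTM (difference 0.30) and miR-152-3p had 64.1 RPTM (difference 0.98).

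MiR-885-5p split the tissues into a high and a low set. It had 264 RPTM in the liver, and it had 98.5 to 197 RPTM in both muscle profiles, spinal cord and occipital lobe. In the remaining 7 profiles it had at most 2.74 RPTM. The liver was therefore 1.34-fold above occipital lobe, although the difference from the mean of the tissues was 4.47. Its gene lies within ATP2B2, which encodes a calcium pump of the plasma membrane.

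MiR-3614-5p, with 106 RPTM in the liver, ranged from 0 RPTM in occipital lobe over 8.01 to 30.2 in lung, and its difference was 3.96. No read of its 3′ arm was found in the liver. MiR-33b-5p, which lies within SREBF1, the gene of a transcription factor of lipid synthesis, and is known to act on the cholesterol transporter ABCA1, had 231 RPTM in the liver. Its other levels ranged from 1.95 in kidney 1 over 29.1 to 118 RPTM in spinal cord, with a difference of 2.83 and a pair SD of 1.09. Its relative with the same seed, miR-33a-5p, had 46.8 RPTM in the liver and a difference of -0.02. So the miR-33 hairpin in SREBF1 was called higher and the miR-33a hairpin was not.

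Of the liver reads of miR-33b-5p, 99.5% ended 1 base before the annotated 3′ end and 0.524% were identical to the annotated sequence. MiR-122a-3p had no identical read at all, since 96.0% of its reads were cut short at the 3′ end and 0.0963% began at the annotated base. Its most frequent form, with 58.5% of the reads, began 1 base earlier and ended 1 base earlier than annotated. For such miRNAs the level depends on the 2 bases of freedom allowed at each end, and when only identical reads were counted 7 of the 15 miRNAs called higher were called again.

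Of the 15, 3 came from the imprinted DLK1-DIO3 cluster, which had 45 of the 371 miRNAs tested, a large group of miRNA genes that is expressed from the maternal chromosome. MiR-369-3p had 126 RPTM in the liver and 93.7 in spinal cord, the next highest (difference 3.12). MiR-431-5p, from within RTL1, had 69.4 RPTM in the liver and at most 17.1 elsewhere, in muscle 1 (difference 2.83, pair SD 1.02). MiR-377-3p had 30.3 RPTM in the liver and 16.1 in occipital lobe (difference 2.59). It rested on 75 liver reads and was not called with a pseudocount of 10 or with identical reads. For miR-369 the arms were shifted: the 5′ arm held 48.0% of the reads in the liver, but 73.7% and 84.9% in the other 2 profiles with enough reads.

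The other 5 miRNAs called higher had between 51 and 257 liver reads. MiR-450b-5p (51.2 RPTM), miR-542-3p (70.2 RPTM) and miR-455-3p (31.1 RPTM, within the collagen gene COL27A1) exceeded the next profile by 1.07-fold, 1.03-fold and 1.07-fold, less than the counting error of their liver reads. MiR-450b-5p and miR-542-3p were both highest outside the liver in kidney 1 and were not called with TMM factors or DESeq2 size factors. MiR-676-1-3p had 104 RPTM in the liver and 64.4 in spinal cord. MiR-193a-3p had 20.6 RPTM in the liver and 10.9 in lung, from 51 liver reads. All of the 15 are shown in the plot of the higher miRNAs by profile.

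**Figure D2:**
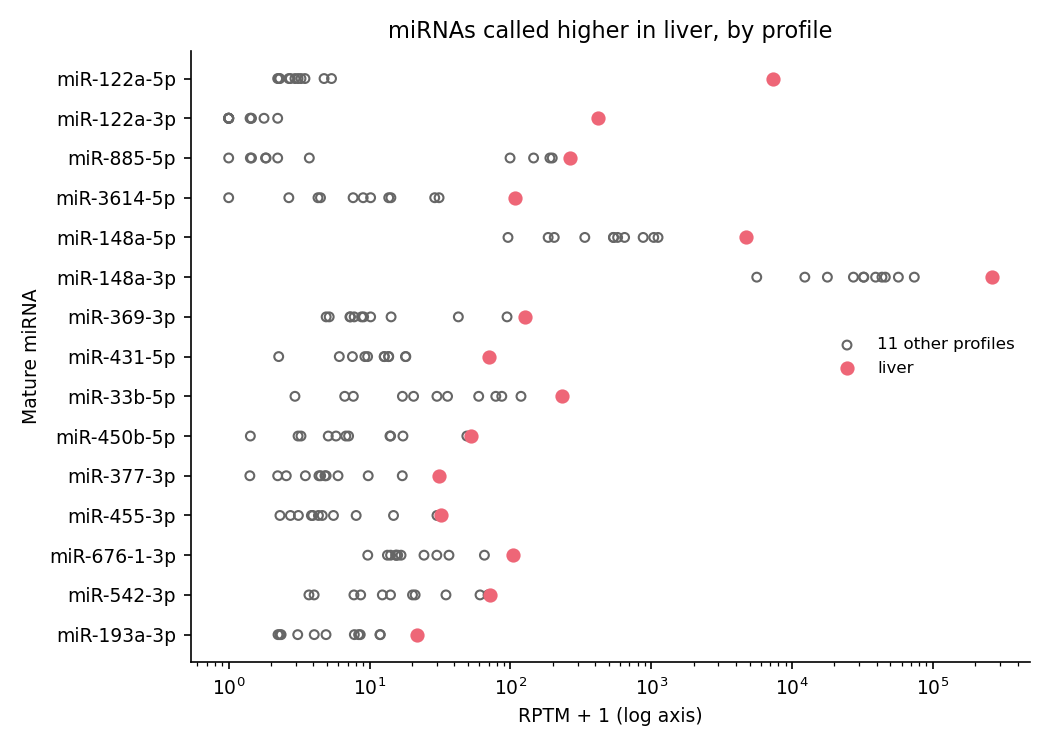
RPTM + 1 on a log axis for the 15 miRNAs called higher in liver, ordered by their difference, with a filled point for the liver and open points for the 11 other profiles. The gap is widest for miR-122a-5p (7320 RPTM against at most 4.37) and closes for miR-542-3p (70.2 against 68.4).

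The largest difference among the miRNAs called lower was that of miR-196a-1-5p, from the HOX clusters, which lie between the genes that pattern the body axis, miR-196a-1 beside HOXB9 and miR-196b between HOXA10 and HOXA9. It had 2 reads in the liver (0.807 RPTM, 95% Poisson interval 0.0977 to 2.91), while the other profiles ranged from 2.17 RPTM in occipital lobe over 549 to 2584 in muscle 1. The gap to occipital lobe was within the counting error, and with identical reads the difference was -1.39 and no longer called. MiR-196b-5p, with the same seed, had 5 reads (2.02 RPTM) and ranged from 2.46 to 1265 RPTM elsewhere. Their differences were -5.49 and -4.29, with pair SDs of 1.76 and 1.43, the widest spread among the lower miRNAs. MiR-196b-5p was not called lower under any of the 3 other scales. Of the 6 HOX miRNAs past the filter, 2 were lower (6.47% over all 371), 0 higher and 4 not called, with a median difference of -3.34, and 1 of the 2 remained lower on each of the 3 other scales. The liver had miR-10a-5p (121447 RPTM, difference 0.22, but -1.20 without occipital lobe and spinal cord) and had less of miR-10b-5p, with the same seed (22211 RPTM, difference -3.50, not called because occipital lobe had 8946 RPTM).

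MiR-183-5p, from a cluster of sensory and epithelial cells, had 12.1 RPTM in the liver, and the other profiles ranged from 18.7 in occipital lobe over 447 to 1208 in spinal cord. Its difference was -4.54, and it was not called lower under any of the 3 other scales. It is part of the epithelial list, of which 9 miRNAs passed the filter, with 1 lower (6.47% over all 371), 0 higher and a median of -1.47. The summed level of this list was 2891 RPTM in the liver, the eleventh of the 12 profiles, against 1941 to 110132 in the others. MiR-141-3p had 423 RPTM and miR-182-5p had 2187 RPTM in the liver, and miR-200c-3p had no read.

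MiR-708-5p, from a hairpin within the teneurin gene TENM4, had no liver read, and at least 6.61 RPTM in every other profile. The lowest of these was at least 5.46-fold above the floor of the liver and the highest, spinal cord with 84.1 RPTM, at least 69.5-fold. MiR-708-3p, the other arm, had 6 liver reads (2.42 RPTM) against 23.6 to 299.9 RPTM, a difference of -4.14. MiR-452-5p had no liver read either, and the other profiles ranged from 4.79 to 48.5 RPTM, at least 3.96-fold above the floor. MiR-577-5p had 4.44 RPTM in the liver and 5.25 to 1398 RPTM elsewhere, so that the gap to lung was within the counting error, and it was not called lower under any of the 3 other scales. Both arms of miR-708 were thus at or near 0 in the liver and measured in all other profiles.

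Of the striated muscle list, 8 miRNAs passed the filter, 4 were lower (6.47% over all 371) and 0 higher, with a median of -2.56. On each of the 3 other scales 1 of the 4, miR-133b-3p with 3 liver reads, remained lower. The summed level was 55.3 RPTM, the lowest of the 12 profiles, against 75.2 to 152879 RPTM. MiR-133a-3p, a regulator of muscle growth, had 46.8 RPTM in the liver. Outside the liver it ranged from 64.5 RPTM in kidney 2 over 645 to 144690 in muscle 2. The 116 reads of miR-133a-3p were the same reads as those of miR-133c-3p, so the copies cannot be separated and their lower calls are the same observation. None of the liver reads of miR-133a-3p fitted this sequence alone. MiR-1-1-3p had 1 liver read, miR-208b-3p had 2 and miR-206-3p had none. Since miR-1-1-3p begins with the UGGA of the adapter, a part of the adapter removal in its level was not tested. When reads that fit more than 1 mature sequence were left out, the difference of miR-133a-3p was -0.50. In that setting miR-133a-3p, miR-133b-3p and miR-133c-3p were not called lower.

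The neuronal and glial list had 19 miRNAs past the filter, of which 2 were lower (6.47% over all 371) and 0 higher, with a median of -2.60. All 19 differences were below 0, and 18 were per assigned reads. The summed level was 825 RPTM in the liver, rank 11 of the 12 profiles, against 744 to 467459 RPTM in the others. MiR-129-2-3p and miR-128b-5p, the lower ones, had no liver read, and in occipital lobe they had 1077 and 807 RPTM. The lowest other profile of each was not above the 1.21 RPTM floor of the liver, so that gap was within the counting error. MiR-9-1-5p, a miRNA of neural progenitors, had 233 RPTM in the liver, within the 169 to 383871 RPTM of the other profiles. MiR-124a-1-3p, the miRNA of neurons, had 7.26 RPTM in the liver, rank 3 of the 12 profiles, and 10508 in occipital lobe. The lists for muscle and nerve are dominated by the tissues that carry them, so the mean of the other tissues is high by construction and the rank of the liver among the other organs is the plainer measure.

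MiRNAs of other cell types that a piece of liver can hold were present but not called. For endothelium, miR-126-3p had 1680 RPTM in the liver (range elsewhere 325 to 9051, difference 0.66). In the list of red blood cells, 5 passed and 0 were called. Their summed level was 120137 RPTM, the sixth of the 12 profiles (9408 to 822644 elsewhere, highest in muscle 2). Of these, miR-486-5p held 119313 RPTM and miR-451-5p held 663. In the immune list, 8 passed and 0 were called, with a summed level of 9776 RPTM, the tenth profile (6805 to 25560 elsewhere). MiR-223-3p, a miRNA of myeloid cells, had 134 RPTM, the second highest after the 816 RPTM of lung, and miR-150-5p, of lymphocytes, had 238 RPTM, the tenth. In the stromal and smooth muscle list, 9 passed and 0 were called, with 350986 RPTM, the tenth. Almost all of it was miR-143-3p, with 343634 RPTM in the liver and up to 3567909 in large intestine 2. The part of these cells in the liver levels was not tested, and in whole tissue fewer cells of a type and less RNA per cell cannot be told apart.

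Among the lists, the hepatocyte-associated list had the highest median. Of its 15 miRNAs past the filter, 6 were higher (4.04% over all 371), 0 lower and 9 not called, and the median was 3.25 beside -0.24 over all 371. The 6 include both arms of miR-122a and both arms of miR-148a, so they are not 6 separate hairpins. The hepatocyte-associated list was written with earlier results of these data known. MiR-194-1-5p, from a hairpin family of which miR-194-2 neighbours miR-192 in the genome, had 5880 RPTM in the liver, rank 3 after both small intestine profiles, which reached 23053 (difference 3.79). MiR-215-5p, whose annotated sequence has the seed of miR-192-5p, had 4653 RPTM in the liver, and 183652 in small intestine 2 (difference 2.56, rank 5 of 12). So the relation of liver and small intestine differed among these relatives: miR-192-5p in the liver was 0.642 of the highest profile, and miR-215-5p was far below it. MiR-365-1-3p and miR-193b-3p had 100.4 and 189 RPTM, and both were highest in muscle 2.

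In the list of lipid and glucose metabolism, 11 passed, of which 1, miR-33b-5p, was higher (4.04% over all 371) and 0 were lower, with a median of 0.15. MiR-27b-3p had 171822 RPTM in the liver, second to the 194313 of lung (difference 0.73, but -0.59 with identical reads). MiR-378a-3p, within PPARGC1B, the gene of a coactivator of mitochondrial genes, had 35786 RPTM in the liver, rank 3 after both muscle profiles. MiR-34a-5p and miR-107-3p had 50.8 and 1177 RPTM, both inside the range of the others.

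The DLK1-DIO3 list held 45 miRNAs past the filter, of which 3 were higher and 0 lower (4.04% and 6.47% over all 371), with a median of 0.73. The summed level was 24826 RPTM in the liver, rank 3 of 12 after spinal cord (106935) and occipital lobe, with 4468 in the lowest profile. MiR-411-5p (10380 RPTM) and miR-127-3p (5490 RPTM) held most of it. Of these 45 differences, 34 were above 0 and 11 below, and per assigned reads 42 were above 0. When occipital lobe and spinal cord were left out, 23 further miRNAs were called higher in the liver, among them miR-411-5p, miR-127-3p, miR-409-3p and miR-410-3p of this cluster.

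The let-7 list had 13 miRNAs past the filter, 1 lower (6.47% over all 371) and 0 higher, with a median of -0.72. The lower one was let-7e-5p with 6868 RPTM, while the others ranged from 8381 in small intestine 2 over 15106 to 156212 in occipital lobe (difference -2.07, pair SD 0.17). It was not called per assigned reads, with TMM factors or without occipital lobe and spinal cord. Let-7f-1-5p, second in the liver, had 425969 RPTM and a difference of -0.38, which was 0.29 per assigned reads. The cell cycle clusters had 12 past the filter, 1 lower (6.47% over all 371) and 0 higher, with a median of 0.22. The lower one was miR-363-3p with 3.63 RPTM in the liver against 10.2 to 379 RPTM elsewhere, and miR-92a-1-3p, the most abundant, had 17675 RPTM. The medians of the epithelial, muscle, neural, HOX and let-7 lists stayed below 0 and those of the hepatocyte, metabolic, endothelial, red blood cell, DLK1-DIO3 and cell cycle lists above 0 on all 4 scales, while those of the immune and stromal lists turned above 0 per assigned reads.

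The ends of the liver miRNAs varied by miRNA. Of the exact reads of miR-192-5p, 88.5% were identical to the annotated sequence and 9.37% began 1 base later. MiR-122a-5p was less uniform: 40.6% were identical, 32.6% were 1 base shorter at the 3′ end and 11.8% began 1 base later. For miR-148a-3p the longer form with an added c at the 3′ end, as in the hairpin, was more frequent (51.0%) than the annotated one (41.4%), and the identical share in the other profiles was 36.0% to 44.1%. Of the reads assigned to miR-215-5p, 95.4% began 1 base after the annotated start, so that most of them do not carry the seed that its annotated sequence shares with miR-192-5p.

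Additions to the 3′ end that are not in the hairpin were found in 28.1% of the liver reads on pre-miRNAs (95% Wilson interval 28.0% to 28.1%), within the 19.8% to 36.7% of the other profiles. Additions of 2 bases made up 5.56% in the liver, the highest of the 12 profiles (1.91% to 5.21% elsewhere). The most frequent single addition was c (12.4%), followed by a (4.24%) and u (4.10%). The share of c ranged from 7.62% to 22.7% in the other profiles. It also differed within tissues, with 8.02% in kidney 1 and 20.2% in kidney 2. For miR-122a-5p, a single added a followed 7.57% of the reads (interval 7.24% to 7.92%), above the median of 4.05% of the 80 abundant or named liver miRNAs but only 28th in order. The addition of a to miR-122 is known as a stabilising modification by the polymerase GLD-2.

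The reads that matched no pre-miRNA were the other mark of the liver. They were chosen for description because they were known to be most frequent there, so the top rank of the liver was known beforehand. Unmatched reads made up 44.2% of the liver reads (10965316 reads, Wilson interval 44.21% to 44.25%, counting error only). Only the 832 pre-miRNAs that could be read, a part of the study's longer list, were searched. A read of any other pre-miRNA thus counts as unmatched in all profiles. In the other 11 profiles the share was 4.65% in small intestine 2 at the lowest, 12.3% at the median and 19.0% in spinal cord at the highest. The liver was thus 2.33-fold above the next profile. Exact matches made up 36.8% of the liver reads, matches with an added 3′ end 15.6% and matches with 1 mismatch 3.28%, each below all other profiles. The excess was also seen within the 21 to 23 bases typical of miRNAs, where 20.9% of the liver reads and at most 8.65% of the reads elsewhere, in lung, matched no pre-miRNA. Remnants of the 3′ adapter behind a pre-miRNA match accounted for 0.479% of the liver reads.

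**Figure D3:**
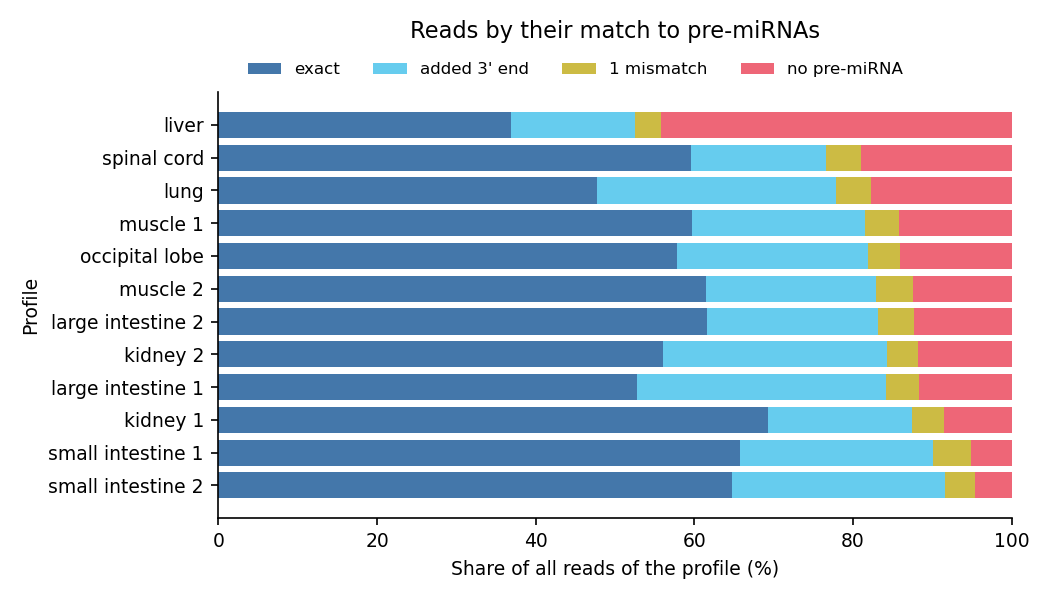
Share of the reads of each profile (horizontal bars adding up to all reads, in %) by their match to pre-miRNAs, ordered by the unmatched share. The liver has 44.2% unmatched reads and the next profile, spinal cord, 19.0%.

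The unmatched liver reads were spread over all lengths up to 31 bases. Lengths of 18 to 20 bases made up 27.8% of them, 21 to 23 bases 27.1%, 24 to 26 bases 20.7% and 27 to 29 bases 14.7%. The range of 30 to 31 bases held 8.04% of them, against 0.923% to 5.51% in the other profiles. As shares of all reads these lengths held 3.56% in the liver and at most 0.783% elsewhere, in muscle 1. Their first base was g in 32.4%, a in 26.6%, c in 21.5% and u in 19.5%, whereas 59.4% of the exact reads on pre-miRNAs began with u.

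**Figure D4:**
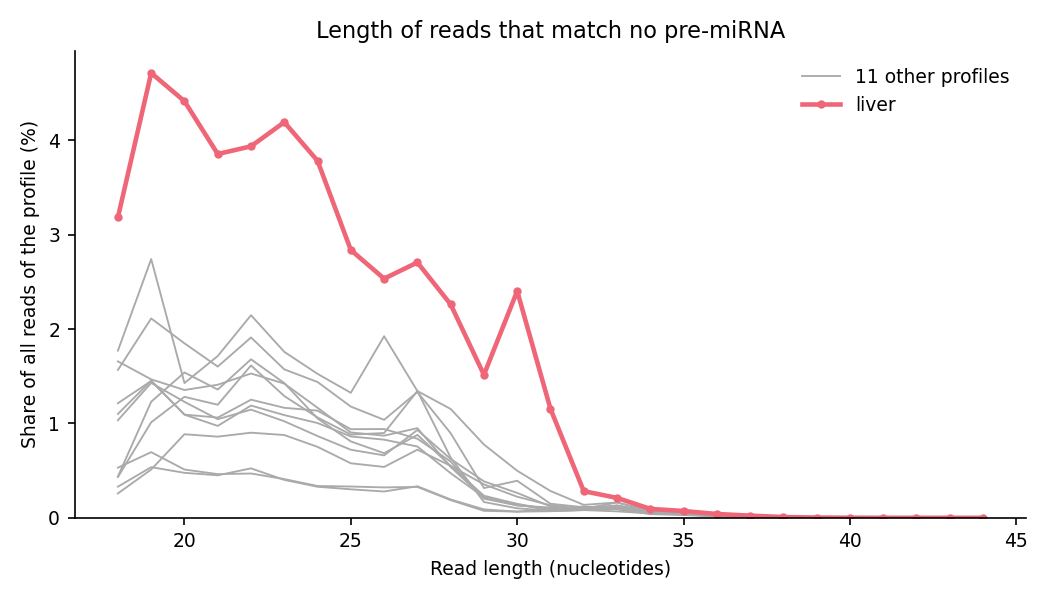
Unmatched reads by length in bases (horizontal axis) as a share of all reads of the profile in % (vertical axis), with a red line for the liver and grey lines for the 11 other profiles. The liver lies above the others from 18 to 31 bases and has a peak at 30 bases (2.40%).

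Most of the unmatched liver reads were sequences that the other tissues also held. Of the unmatched liver reads, 76.2% were sequences also read in all 11 other profiles (17095 sequences), and 9.52% were sequences read in the liver alone (514718 sequences). The 10 most abundant unmatched sequences of the liver held 13.2% of its unmatched reads, within the 8.56% to 20.5% that the 10 most abundant of each other profile held.

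The 9162 unmatched sequences with at least 100 liver reads were joined into 500 families that share 15 bases in a row, and these held 89.3% of the unmatched reads. The 6 largest families held 41.4%. Since the families were built from and ordered by liver reads, high levels in the liver follow in part from the choice, and the levels are given as a description. The largest family, with the common end gtgctgtaggctt, had 931679 RPTM in the liver. It ranged from 56374 in small intestine 2 over 188362 to 370675 in lung. Its members ended within 1 base of the same position in 97.6% of the reads, while only 35.5% began within 1 base of the most frequent start, so they form a ladder of starts in front of a fixed 3′ end. These letters are those of the 3′ end of the smallest cytoplasmic ribosomal RNA as known from textbooks. No ribosomal or transfer RNA sequence was used here, so no family was assigned by alignment.

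The second family differed from the first in its ends and its distribution. It had 285196 RPTM in the liver, 35854 in lung, the next highest, and 3238 in small intestine 1, the lowest. Both of its ends were fixed, with 94.0% of the reads within 1 base of the most frequent start and 95% within 1 base of the most frequent end. Its 30-base sequence was the most abundant unmatched sequence of the liver with 129473 RPTM, against 241 to 19128 RPTM elsewhere. The form that is 1 base longer at the 5′ end had 62828 RPTM in the liver, a median of 102 RPTM in the others and 9179 in muscle 1. Both forms have the lengths, 30 and 31 bases, at which the unmatched liver reads stood farthest above the other profiles.

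The families differed in their share of the unmatched reads, a measure that leaves out the larger number of such reads in the liver. As a share of the unmatched reads, the first family held 21.1% in the liver and 10.8% to 21.2% in the others, so that kidney 2 was as high. The second family held 6.45% in the liver and at most 2.02% elsewhere, in lung. Family 3 held 4.67% against at most 3.54%, and family 4 held 4.48% against at most 4.32%. Families 5 and 6 held 3.06% and 1.71% in the liver, both rank 3 of the 12 profiles after both large intestine profiles. The liver was thus above the other 11 profiles in families 2, 3 and 4 and inside their range in families 1, 5 and 6.

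**Figure D5:**
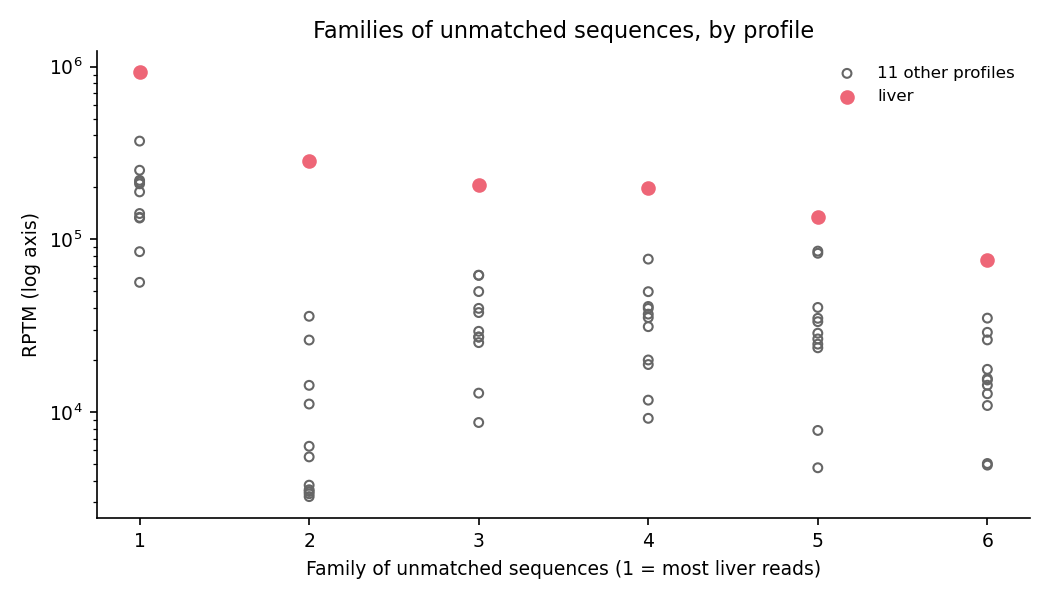
RPTM on a log axis for the 6 largest families of unmatched sequences, with a filled point for the liver and open points for the 11 other profiles. The families were chosen by their liver reads, and the liver is 2.51-fold above the next profile for family 1 and 7.95-fold for family 2.

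Outside the 6 families, the eleventh sequence, printed above, had 29864 RPTM in the liver and 12717 in muscle 1, the next highest. The twelfth had 29637 RPTM in the liver, a median of 333 RPTM in the others and 16088 in spinal cord. Both were chosen for their liver reads.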

How the data were processed

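Per the labels and methods, total RNA was extracted with TRIzol from frozen tissues of 2 animals, and small RNA libraries were sequenced on an Illumina sequencer. The authors kept reads with scores of at least 30 in the first 25 bases, removed the 3′ adapter and deposited, for each profile, a list of unique sequences of at least 18 bases with their raw counts, without normalization.

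The counts were compared here, in Python 3.11.15 with numpy 2.4.6 and pandas 2.3.3, with 832 pre-miRNAs and 1219 mature sequences that could be read from the study's table. Only a part of that table could be read. 7 mature miRNAs not found in their hairpin were left out. An exact read with both ends within 2 bases of a mature miRNA was assigned to it, and to each mature miRNA it fitted. Other reads were matched with an added 3′ end of up to 2 bases or 1 mismatch. Levels were scaled to 10000000 reads with a pseudocount of 1. Named miRNAs are the 15 most abundant in liver, the 15 higher and 10 lower with the largest difference, and members of 13 lists. The lists and their members were chosen with earlier results of these data known, and so was the description of unmatched reads. Alternatives used edgeR 4.0.16 (TMM) and DESeq2 1.42.0 (size factors), other filters, pseudocounts, matching rules and sets of profiles. The matching and calls were also run on simulated data. For the calls, the other profiles of a miRNA shared a common mean, and the changes in the liver were larger than the cut-off. So the simulation does not show how calls near the cut-off behave. No test was made for the liver, which has 1 profile.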

Additional observations from a re-analysis of the deposited data

How the results depend on the processing

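Of the 371 miRNAs tested, 15 were higher and 24 lower in the liver. With the same 371, a pseudocount of 10 gave 9 and 13, and a difference of at least 3 gave 7 and 14. Leaving out occipital lobe and spinal cord gave 36 higher, also of 371. Other settings changed the number tested. No filter gave 30 higher of 773, scaling to assigned reads gave 33 and 14 of 416, and identical reads gave 14 lower of 262. Leaving out each numbered profile in turn gave 15 to 16 higher and 23 to 30 lower. Scaling moved the median difference by 0.67 per assigned reads, 0.14 with TMM factors and 0.08 with DESeq2 size factors, and 13 of the 15 higher calls remained with either set of factors, as did 14 (TMM) and 15 (DESeq2) of the 24 lower calls. The settings with no filter or with another cut-off for the difference leave the differences themselves unchanged by construction. With these included, of 1007 values of the 53 most abundant or called miRNAs, 134 moved by more than the pair SD. None of the 39 called ones changed sign, although miR-122a-3p fell to a difference of 0 with identical reads, and 4 values of uncalled ones did: let-7f-1-5p (0.29) and miR-26a-1-5p (0.12) per assigned reads, miR-27b-3p (-0.59) with identical reads and miR-10a-5p (-1.20) without occipital lobe and spinal cord. The calls of miR-122a-5p, miR-148a-3p, miR-148a-5p, miR-885-5p and miR-3614-5p held in all 18 settings other than the difference of at least 3. Among these settings, no filter and a difference of at least 1 cannot remove a call. The unmatched share of 44.2% became 63.2% with exact matches alone, 47.5% without mismatches, 20.9% for 21 to 23 bases, 93.2% of unique sequences and 43.7% when adapter remnants were taken as matches, an alternative chosen after seeing the data; the liver was the highest profile in each. The share of 28.1% with an added 3′ end became 22.5% for 1 base, 29.3% for reads that start at a mature miRNA and 17.9% of unique sequences. The causes were not tested beyond these settings. No paired analysis was possible because the liver has 1 profile and no result comes from a test. RefSeq hairpins were not used here.

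With 1 liver profile, intervals cover counting error only. At 24793024 reads, miRNAs under 1.21 RPTM cannot be told from 0.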
